A study of Mus musculus with 5 samples.

Results

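The DNA replication genes of mouse blood-forming stem and progenitor cells were compared between Gabbr1 null and wild-type bone marrow. Gabbr1 codes for 1 of the subunits of the metabotropic receptor for the neurotransmitter GABA. The set held 39 genes of 39056 in the deposited count table, named for their licensing, helicase, polymerase, clamp, fork protection and chromatin assembly functions in S phase by a rule that uses no measured value, although earlier results of these data were known when it was written. All 39 passed the filter on low counts, under which 13467 genes were tested. The cells were the LSK population, which lacks mature lineage markers and carries Sca-1 and Kit on its surface. They were sorted from C57BL/6 mice at postnatal day 15, at about 12000 cells per library. WT was represented by 2 libraries and the Gabbr1 null mutant by 3. The labels name no treatment. The labels do not say how the null allele was made, which mouse each library came from, or whether mice were pooled, so every p-value below measures the spread between these libraries.

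Before S phase, Cdc6 and Cdt1 help the origin recognition complex load rings of Mcm2 to Mcm7 onto DNA, the step called licensing. At the start of S phase Cdc45 and the GINS complex join the ring and make it an active helicase, after which primase and DNA polymerases copy the strands, held on DNA by the sliding clamp Pcna. Many of these genes are transcribed together as cells pass from G1 into S phase, under E2F transcription factors. An LSK sort holds both stem cells and progenitors, so the level of this programme in it reflects cells at different stages of the cycle.

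The promoters of these genes were searched because the members share S phase timing. RefSeq windows on GRCm38.p6, from 250 bases before to 50 bases after a gene's start, were found for 30 of the 39 members. No window was matched for Usp1, Exo1, Pole, Gins2, Rfc2, Mcm4, Gins1, Dscc1 or Tipin. An E2F word, defined here as TTTCCCGC, TTTCGCGC, TTTGCCGC or TTTGGCGC on either strand, stood in the windows of 15 of the 30 members (50%), beside 704 of 27025 genes (2.6%) in the whole table. There were 21 matches in all, with 7 each of TTTCCCGC, TTTCGCGC and TTTGGCGC and 0 of TTTGCCGC, and 5 members held more than 1. Matches on opposite strands can overlap and share bases, as they do in Mcm5 and Mcm6. Within the 250 bases before the start alone, 10 of the 30 members (33.3%) held a word, beside 2.16% of all genes. The stretches below show where the words lie in 9 of those 10 members, with E2F words in capitals. E2f8 is shown as the member with the largest difference between genotypes, and its window held no E2F word. Its capitals mark TTTGAA, read on the other strand, a word known from cell cycle genes expressed late in the cycle.
Cdc6, chr11:98908003-98908030, plus strand: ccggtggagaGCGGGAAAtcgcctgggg
Mcm5, chr8:75109336-75109395, plus strand: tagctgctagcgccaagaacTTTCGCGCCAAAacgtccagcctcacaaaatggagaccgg
Mcm6, chr1:128359725-128359835, minus strand: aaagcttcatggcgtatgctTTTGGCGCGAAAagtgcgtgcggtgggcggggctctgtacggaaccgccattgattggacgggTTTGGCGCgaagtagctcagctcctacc
Mcm7, chr5:138172031-138172058, minus strand: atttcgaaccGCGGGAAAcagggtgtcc
Gins3, chr8:95633508-95633535, plus strand: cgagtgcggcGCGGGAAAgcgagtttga
Pola1, chrX:93632254-93632313, minus strand: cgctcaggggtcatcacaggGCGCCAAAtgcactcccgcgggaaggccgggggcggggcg
Dtl, chr1:191575545-191575572, minus strand: atcagaaagcgtgacgtcagTTTGGCGC
Hells, chr19:38930918-38930945, plus strand: accaccgggtTTTCCCGCgaaagagaag
Uhrf1, chr17:56304118-56304145, plus strand: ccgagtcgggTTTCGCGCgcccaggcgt
E2f8, chr7:48881597-48881676, minus strand: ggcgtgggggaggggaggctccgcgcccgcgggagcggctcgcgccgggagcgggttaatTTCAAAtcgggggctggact

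A match is a run of letters and does not show that a factor binds. The log2 fold changes of null over WT, given below, had a median of 0.10 (0.02 to 0.33) in the 15 members with an E2F word and 0.11 (-0.29 to 0.47) in the 15 whose windows held none. The first range lay inside the second. All 15 members with a word had positive values, and 13 of the 15 without one did.

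Library totals ran from 6972753 to 8150774 counts. Gabbr1 itself, the targeted gene, had counts of 402 and 403 (WT) against 289, 264 and 268 (null), a log2 fold change of -0.59 ± 0.13 (SE, n = 2 and 3) with an edgeR adjusted p of 0.0361. The adjusted p went past 0.05 on leaving out WT library 1 (0.0722) or 2 (0.38), or null library 2 (0.0802) or 3 (0.137), and counts over the whole gene do not show which exons the allele lacks. Null library 1 stood apart in sex-linked genes, with 22532 counts of Xist against 0 to 21 in the other 4 libraries, and 0 counts summed over 4 Y-linked genes against 1140 to 1567. Markers of several other cell types differed between libraries. The 16 B lineage markers, all 16 of them called higher, summed to 294 and 123 CPM (counts per 1000000 of the scaled library) in WT and to 897 to 1614 CPM in null, the 12 mature neutrophil markers to 148 and 109 CPM in WT and 136 to 2234 CPM in null, and the 8 cartilage markers to 0.862 and 1.14 CPM in WT and 21.9 to 160.2 CPM in null. Of 11 endothelial and stromal markers tested, 6 were called higher, and the list of 13 summed to 258 and 306 CPM in WT and 374 to 473 CPM in null. The 10 T and NK cell markers summed to 54.7 and 56.7 CPM in WT and 54.1 to 60.9 CPM in null. The 8 monocyte and dendritic markers summed to 48.9 and 61.8 CPM in WT and to 134.2, 77.8 and 57.0 CPM in null libraries 1 to 3. Of 6 tested, all 6 had positive log2 fold changes and 1, Ccr2, was called higher. None of the 9 neutrophil markers tested was called by edgeR, although 8 were higher at an unadjusted p under 0.05. Over all genes tested, 2.15% were called higher and 7.99% were higher at that unadjusted p. Defining T cell and red cell genes were at or near 0, with Cd3e at 0 to 2 counts and Hba-a1 and Hba-a2 at 0 in every library. The 8 genes of the LSK gate summed to 3336 and 3542 CPM in WT and 2726 to 2941 CPM in null, with Kit at a mean of 1020 and 912 CPM. Ly6a, also of that list, was at 26.84 and 30.34 CPM in WT and 29.85, 12.93 and 24.04 in null. In bulk libraries, fewer cells of a type and less RNA per cell cannot be told apart. The part of these cells in the differences below was not tested.

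None of the 39 replication genes passed an adjusted p of 0.05 in either direction, by edgeR's quasi-likelihood test with Benjamini-Hochberg adjustment over all genes tested. Over all genes, 2.15% were called higher in null and 0.334% lower. At an unadjusted p under 0.05, 4 members were higher (10.3%, beside 7.99% of all genes) and 0 were lower. The 4 were E2f8, Slbp, Clspn and Mcm4. limma-voom also called 0 members at the adjusted threshold and had 5 higher at the unadjusted one, beside 7.55% of all genes, while DESeq2 called 1, E2f8, and had 4, beside 6.82%. The members nevertheless sat mostly above WT by small amounts. The log2 fold change was positive in 36 of 39 (92.3%), beside 49.2% of all genes, and its median was 0.11 beside 0.00. The null values lay wholly above the WT values in 11 members (28.2%, beside 15.5% of all genes) and wholly below in 1 (2.56%, beside 13.7%), Ung. Replication genes vary together from cell to cell with the cycle, so the 39 are not 39 separate observations.

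By library, the members summed to 6560 and 6493 CPM in WT libraries 1 and 2, and to 6941, 7204 and 7192 CPM in null libraries 1, 2 and 3. The 3 null sums all exceeded the 2 WT sums, and as a share of all counts null library 1, at 0.668%, equalled WT library 1 at 0.668%. The WT library 2 share was 0.654%, and those of null libraries 2 and 3 were 0.725% and 0.716%. Set against the WT mean, the median member stood at a log2 value of 0.02 and -0.02 in WT and 0.09, 0.13 and 0.13 in null. Because the mean of the 2 WT libraries is the reference, their values for a gene lie on either side of 0 by construction. A pooled SD of these library medians came to 0.026. The lowest value of a member was found in WT library 2 for 20 genes and in WT library 1 for 14, and the highest in null library 2 for 16 and null library 3 for 12.

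**Figure D1:**
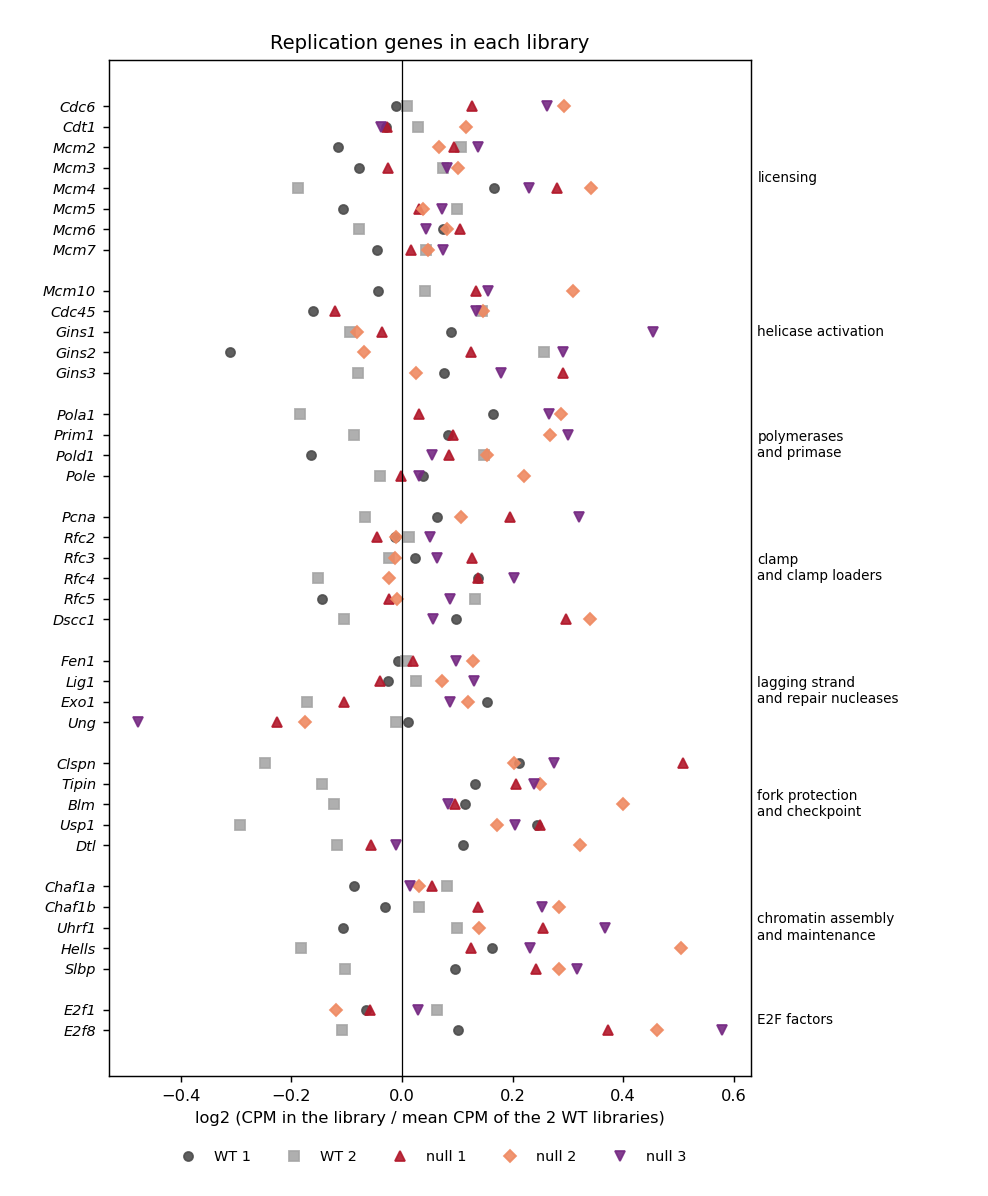
Each of the 39 members in each of the 5 libraries, as the log2 ratio of its CPM to the mean of the WT libraries, with genes grouped by role. The null values are mostly positive, with library medians of 0.09, 0.13 and 0.13. The WT values fall on either side of 0 for each gene by construction, because their mean is the reference.

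The intervals of the edgeR fit were narrow for most members, but they rest on 2 WT libraries. Leaving out WT library 1 or 2 gave a log2 fold change of 0.57 or 0.12 for Clspn and 0.46 or 0.12 for Mcm4. For Cdc6 it gave 0.21 or 0.24. Standard errors of the 39 log2 fold changes ran from 0.10 to 0.19 with a median of 0.12, from 118 to 6837 counts per gene and library. For 36 members the 95% interval lay inside 1.5-fold in both directions. The intervals of E2f8, Clspn and Hells reached above 1.5-fold higher. A p that missed the threshold does not show that a gene was equal in the 2 genotypes.

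**Figure D2:**
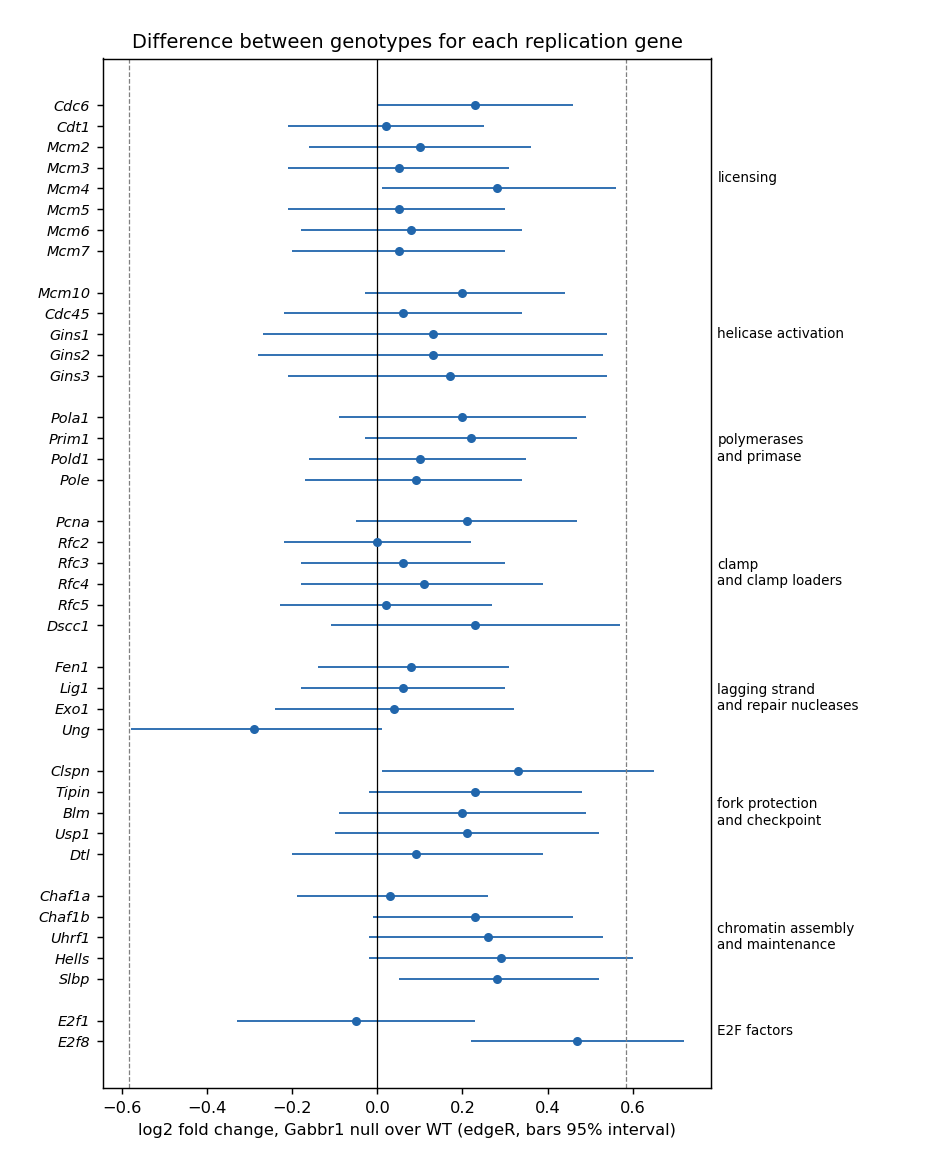
Log2 fold change of null over WT for each member, with its 95% interval from the edgeR fit, grouped by role. The values run from -0.29 (Ung) to 0.47 (E2f8), and 4 intervals lie wholly above 0.

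The WT libraries themselves differed along the base composition of the transcripts. The log2 ratio of WT library 2 to WT library 1 increased with the GC content of a member's longest transcript. Pearson's r was 0.72 and Spearman's rho 0.77 over the 39 genes, beside 0.31 and 0.41 over 13445 genes. These are descriptions across genes measured in the same pair of libraries, and genes are not independent replicates. The 18 members higher in WT library 2 had a median GC content of 52.6% (48.7 to 61), and the 21 higher in WT library 1 one of 44.4% (37.7 to 50.6). For the null over WT fold changes, which share the WT libraries with that ratio, r was -0.38 and rho -0.48 across the members, and -0.11 and -0.25 across all genes. Usp1, a low-GC gene for the enzyme that takes ubiquitin off Pcna, was at 152 CPM in WT library 1 and 105 in WT library 2, and at 153, 145 and 148 in the null libraries. WT library 1 sat among the null libraries for Usp1 and WT library 2 alone sat below, and with an offset for GC content, described next, its WT pair still stood at 149.6 and 114 CPM. In 18 of the 39 members the SD of the WT pair exceeded the difference between the group means.

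**Figure D3:**
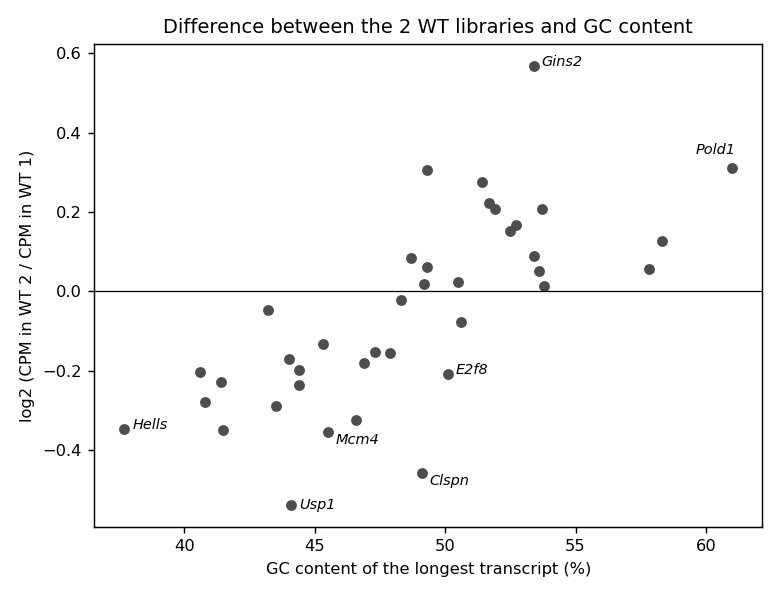
Log2 ratio of WT library 2 to WT library 1 against the GC content of the longest transcript, in percent, for the 39 members. The members climb from below 0 at low GC to above 0 at high GC, with r = 0.72.

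A fit with an offset for GC content, chosen after seeing this pattern, tested 13445 genes and called 1 member higher (2.56%, beside 2.15% of all genes in that fit). It was E2f8, at a log2 fold change of 0.48 ± 0.10 and an edgeR adjusted p of 0.0418. At an unadjusted p under 0.05, 8 members were higher (20.5%, beside 8.18%), and the median log2 fold change was 0.13 with 35 of 39 positive. Uhrf1 and Pold1, both rich in GC, moved from 0.26 to 0.31 and from 0.10 to 0.21, while Slbp and Mcm4 moved from 0.28 to 0.21 and from 0.28 to 0.23, Tipin from 0.23 to 0.13 and Hells from 0.29 to 0.18. Cdc6, Clspn and Cdc45 stayed at 0.23, 0.33 and 0.06.

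Among the licensing genes, the Mcm2 to Mcm7 ring differed between genotypes by 1.22-fold or less, and Mcm4 stood furthest from WT. Per kilobase of exon, the mean levels over the 5 libraries were 177 CPM for Mcm6, 132 for Mcm3, 116 for Mcm7, 86.5 for Mcm5, 74.7 for Mcm4 and 50.6 for Mcm2. That order was the same in each of the 5 libraries. Mcm5 and Mcm4 lay closest, at 78.8 and 74.1 CPM per kilobase in WT library 1 and 87.1 and 83.7 in null library 2. The order depends on the merged exon length, which is the same divisor in every library and can exceed the length of the transcripts present. That length was 6956 bases for Mcm2 and 3589 to 4666 for the others. Undivided, Mcm2 stood above Mcm4, at means of 337 against 237 CPM in WT and 361.5 against 289 in null.

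Mcm4 (chromosome 16, 15623897 to 15637400, minus strand, mm10) was at 266 and 208 CPM in WT libraries 1 and 2 and at 288, 301 and 278 in null libraries 1 to 3. The null values all lay above both WT values, and WT library 2 was the low one. The log2 fold change was 0.28 ± 0.13 (95% interval 0.01 to 0.56), with an edgeR p of 0.0454 and an adjusted p of 0.374. The value was 0.46 without WT library 1 and 0.12 without WT library 2, where the edgeR p was 0.327 (adjusted 0.836). The other 5 ring genes showed no such separation. Mcm2 was at 311 and 363 CPM in WT and 360.2, 354 and 371 in null, and Mcm5 at 315 and 363 against 346, 348 and 356. For both, WT library 1 was the lowest of the 5, and WT library 2 was second highest for Mcm2 and highest for Mcm5. Mcm3 (459.8 and 511 against 477, 521 and 513 CPM), Mcm7 (487 and 518 against 508, 519 and 529) and Mcm6 (842 and 757 against 859, 845 and 824) also overlapped, with WT library 1 lowest for Mcm3 and Mcm7 and WT library 2 lowest for Mcm6. Their log2 fold changes were 0.10 for Mcm2, 0.08 for Mcm6 and 0.05 for Mcm3, Mcm5 and Mcm7, each with a standard error of 0.11 or 0.12. Without WT library 1, the values of 4 of them turned negative, at -0.02 for Mcm2, -0.03 for Mcm3, -0.06 for Mcm5 and -0.01 for Mcm7, and Mcm6 stood at 0.14, beside 0.00 without WT library 2.

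Of the loading factors, Cdc6 (chromosome 11, 98907801 to 98923940, plus strand) was at 100.2 and 102 CPM in WT and 110.1, 124 and 121 in null. The WT pair was close together, with an SD of 0.958 CPM, and the 3 null values lay above it. Its log2 fold change was 0.23 ± 0.11, with an edgeR p of 0.0514 and an adjusted p of 0.395, and it ran from 0.20 to 0.28 over 15 alternatives. Cdt1, the partner of Cdc6 in loading, was at 124 and 129 CPM in WT and 124, 137 and 123 in null, a log2 fold change of 0.02 ± 0.11.

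The genes that turn the loaded ring into a helicase had positive log2 fold changes in 5 of 5, with a median of 0.13. Mcm10, needed to start unwinding, was at 106 and 112 CPM in WT and 119.5, 135 and 121 in null. These groups did not overlap, and the log2 fold change was 0.20 ± 0.11 (95% interval -0.03 to 0.44). Cdc45 was at 76.6 and 94.7 CPM in WT and 78.8, 94.8 and 94.0 in null, with 0.06 ± 0.13. Its WT pair spanned nearly the whole range of the 5 libraries, and without WT library 1 the value was -0.10. The GINS subunits were low, at 16.8 to 35.9 CPM. Gins1, Gins2 and Gins3 had log2 fold changes of 0.13, 0.13 and 0.17 with standard errors of 0.17 to 0.19, the widest of the set.

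Among the polymerases, the primase subunit Prim1, which makes the short RNA starts of each fragment, was at 83.9 and 74.6 CPM in WT and 84.5, 95.4 and 97.7 in null. The groups did not overlap, although null library 1 lay close to WT library 1. The log2 fold change was 0.22 ± 0.11, and 0.14 without WT library 2. Pola1, the X-linked catalytic subunit of the primase-bound polymerase, was at 82.0 and 64.4 CPM in WT and 74.8, 89.3 and 88.0 in null, and its groups overlapped at 0.20 ± 0.13. Pold1, the lagging strand polymerase, was at 165 and 205 CPM in WT and 196, 206 and 192 in null, with 0.10 ± 0.12, and -0.06 without WT library 1. Pole, of the leading strand, was at 290.3 and 275 against 282, 329.6 and 289 CPM, with 0.09 ± 0.12.

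The clamp Pcna was at 277 and 253 CPM in WT and 304, 286 and 332 in null, without overlap and with a log2 fold change of 0.21 ± 0.12 (95% interval -0.05 to 0.47). Its loaders differed less. Rfc2, Rfc3, Rfc4 and Rfc5 had values of 0.00, 0.06, 0.11 and 0.02, and all 4 overlapped between genotypes. Rfc2 was the flattest member, at 161 and 164 CPM in WT and 158, 162 and 169 in null. Dscc1, of the alternative loader used in sister chromatid cohesion, had the lowest level per length in the set, at 6.70 CPM per kilobase, and a log2 fold change of 0.23 ± 0.16.

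Of the genes that finish the lagging strand or repair it, Ung was the one member with every null value below WT. Ung (chromosome 5, 114130386 to 114139323, plus strand) encodes the glycosylase that removes uracil from DNA. It was at 45.7 and 45.0 CPM in WT and 38.8, 40.1 and 32.6 in null, with null library 3 lowest. The log2 fold change was -0.29 ± 0.14 (95% interval -0.58 to 0.01), with an edgeR p of 0.0557 and an adjusted p of 0.407, and it was -0.20 without null library 3. Fen1, the flap nuclease, was at 127 and 128 CPM in WT and 129.5, 139.5 and 137 in null, without overlap but at only 0.08 ± 0.10. Lig1, which seals the fragments and had the highest level per length of this role, was at 247 and 256 CPM in WT and 245, 264 and 275 in null. Its groups overlapped, at 0.06 ± 0.11, as did those of the exonuclease Exo1, at 0.04 ± 0.13.

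The fork protection genes had positive values in 5 of 5 with a median of 0.21, and each was lower in WT library 2 than in WT library 1. Clspn, the adaptor that passes the stalled fork signal to Chk1, was at 76.7 and 55.8 CPM in WT and 94.2, 76.3 and 80.1 in null. WT library 1 lay inside the null range and WT library 2 below it. The log2 fold change was 0.33 ± 0.15 (95% interval 0.01 to 0.65), with an edgeR p of 0.0441 and an adjusted p of 0.37. It was 0.57 without WT library 1 and 0.12 without WT library 2, where the edgeR p was 0.412 (adjusted 0.866). Tipin, of the complex that couples helicase and polymerase, was at 131 and 108 CPM in WT and 138, 142.5 and 141.5 in null, without overlap and at 0.23 ± 0.11. Its value was 0.37 without WT library 1 and 0.10 without WT library 2. Blm, Usp1 and Dtl overlapped, at 0.20 ± 0.13, 0.21 ± 0.14 and 0.09 ± 0.13.

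The chromatin genes had a median log2 fold change of 0.26, with 5 of 5 positive and 3 of 5 not overlapping. Slbp (chromosome 5, 33634952 to 33652574, minus strand) binds the stem-loop of histone mRNAs and is needed for their processing in S phase. It was at 193 and 168 CPM in WT and 214, 220.0 and 225 in null. All null values exceeded both WT values, and the log2 fold change was 0.28 ± 0.11 (95% interval 0.05 to 0.52), with an edgeR p of 0.0232 and an adjusted p of 0.279. It was 0.37 without WT library 1 and 0.18 without WT library 2, where the edgeR p was 0.12 (adjusted 0.728). Chaf1b, a subunit of the histone chaperone that follows the fork, was at 62.3 and 64.9 CPM in WT and 70.0, 77.5 and 75.8 in null, without overlap and at 0.23 ± 0.11. Its partner Chaf1a was at 125 and 141 CPM in WT and 138, 136 and 134 in null, inside the WT range and at 0.03 ± 0.10. Uhrf1, which guides DNA methylation to newly copied strands, was at 293 and 338 CPM in WT and 376, 347 and 406 in null, at 0.26 ± 0.13, and at 0.15 without WT library 1. Hells, a chromatin remodeller also needed for DNA methylation, overlapped at 0.29 ± 0.14, with 87.3 and 68.6 CPM in WT and 85.0, 111 and 91.5 in null. Its value was 0.47 without WT library 1, 0.13 without WT library 2 and 0.18 without null library 2.

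The pair of E2F factors in the set differed from each other. E2f8 (chromosome 7, 48866429 to 48881596, minus strand) encodes an atypical E2F that represses S phase genes late in the cycle and is itself an E2F target. It was at 123 and 107 CPM in WT libraries 1 and 2 and at 149, 158 and 171 in null libraries 1 to 3. The groups did not overlap, with means of 115 ± 11.7 and 159 ± 11.4 CPM (SD, n = 2 and 3). The log2 fold change was 0.47 ± 0.12 (95% interval 0.22 to 0.72), or 1.39-fold, with an edgeR p of 0.0015 and an adjusted p of 0.0556. Over 15 alternatives it ran from 0.37 to 0.57 on the log2 scale and the adjusted p from 0.00837 to 0.414. It passed the threshold in 4 of them, with no filter on low counts (0.00837), with DESeq2 (0.0182), with a robust edgeR fit (0.0255) and with the GC offset (0.0418). Exons of E2f8 overlap the opposite-strand gene Gm2788 over 610 bases, and Gm2788 itself had 2 to 12 counts per library. E2f1, an activator that opens S phase, was at 39.8 and 43.4 CPM in WT and 39.97, 38.3 and 42.4 in null. Its values overlapped throughout, at -0.05 ± 0.13 (95% interval -0.33 to 0.23).

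**Figure D4:**
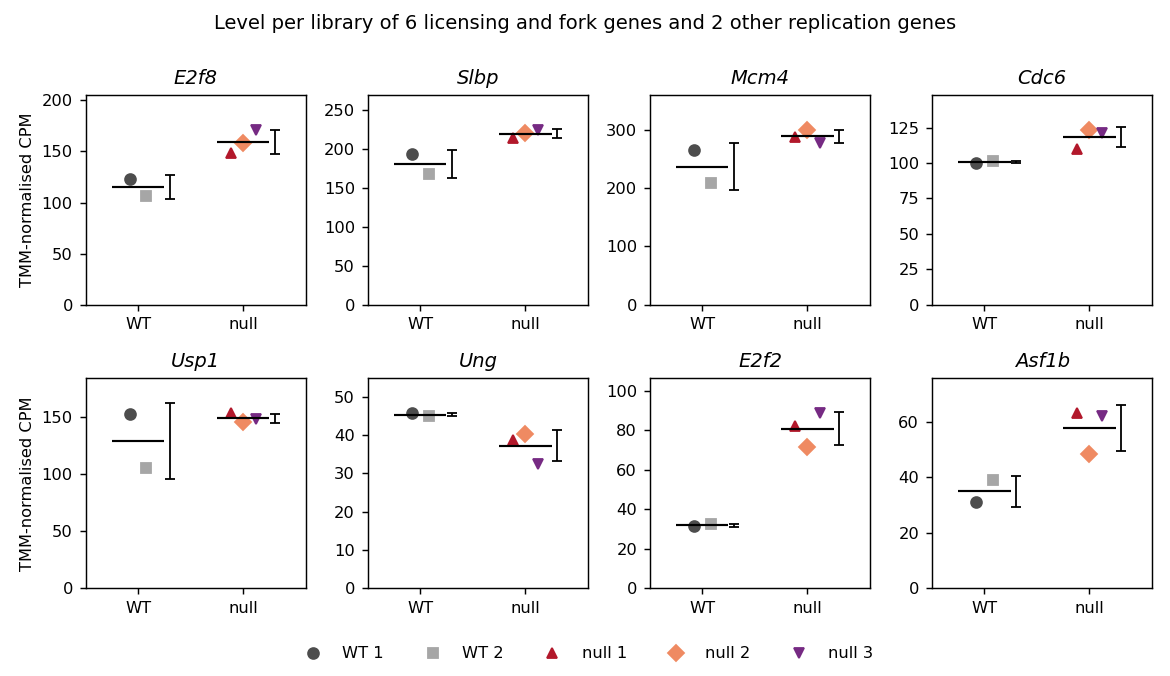
CPM in each library for 6 members, E2f8, Slbp, Mcm4, Cdc6, Usp1 and Ung, and for E2f2 and Asf1b from the other replication genes. Points are libraries, lines the group means and bars the SD. E2f2 shows the widest gap, with WT at 31.3 and 32.3 CPM and null at 71.6 to 88.5 CPM.

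Of 61 other replication genes, such as the remaining origin, polymerase and cohesion factors, 2 rose in null and 0 fell. Over all genes, the called shares were 2.15% higher and 0.334% lower. Positive values were found in 50 of the 61 (82.0%, beside 49.2% of all genes), with a median log2 fold change of 0.11. The 2 that rose were E2f2 and Asf1b. E2f2, an activator E2F, was at 31.3 and 32.3 CPM in WT and 82.2, 71.6 and 88.5 in null. The groups lay far apart, at a log2 fold change of 1.35 ± 0.13 or 2.54-fold and an edgeR adjusted p of 0.000254, and it passed in 15 of 15 alternatives. Asf1b, a histone chaperone that hands histones to the complex of Chaf1a and Chaf1b, was at 31.0 and 39.03 CPM in WT and 63.2, 48.4 and 62.1 in null. Its log2 fold change was 0.73 ± 0.16 with an edgeR adjusted p of 0.0287, which went past 0.05 on leaving out WT library 1 (0.189) or 2 (0.171), or null library 1 (0.0539) or 3 (0.0863). Gmnn, the inhibitor of Cdt1, was at 45.4 and 46.0 CPM in WT and 57.3, 55.9 and 69.9 in null, with 0.42 ± 0.13 and an adjusted p of 0.156. Among the 39 members the highest log2 fold change was 0.47, beside 1.35 for E2f2.

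Among 20 genes of nucleotide supply, the median log2 fold change was 0.01, and 2 genes rose, beside 2.15% of all genes. Rrm2, the S phase subunit of ribonucleotide reductase, was at 137 and 125 CPM in WT and 276, 228 and 266 in null, at 0.97 ± 0.12 with an edgeR adjusted p of 0.00109. Dck, the kinase that salvages deoxycytidine, was at 92.5 and 97.9 CPM in WT and 221, 167 and 202 in null, at 1.05 ± 0.13 with an edgeR adjusted p of 0.00117. Neither pair of groups overlapped. The Rrm2 call was lost without WT library 2 (0.0763), and the Dck call without WT library 1 (0.0503) or WT library 2 (0.0695). Among 40 genes of G2 and mitosis, all 40 log2 fold changes were positive, beside 49.2% of all genes, with a median of 0.25. In 26 the null values lay wholly above WT (65.0%, beside 15.5% of all genes). At an unadjusted p under 0.05, 18 were higher (45.0%, beside 7.99%), and 0 passed the adjusted threshold. The difference between these lists and the replication members was not tested. The B lineage markers also summed higher in each null library than in either WT library, as given above, and their part in these lists was not tested.

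**Figure D5:**
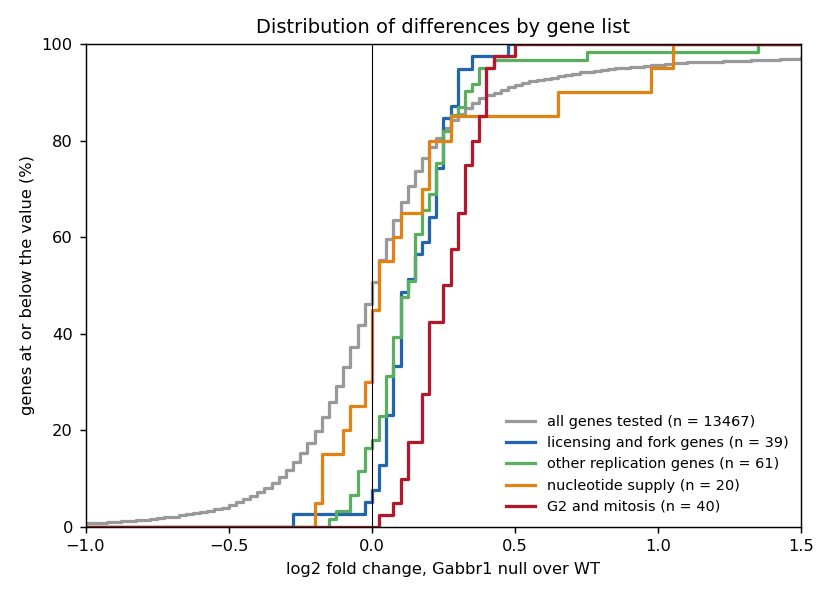
Cumulative share of genes, in percent, by log2 fold change of null over WT, for the 39 members, the other replication genes, nucleotide supply, G2 and mitosis, and all genes tested. The medians are 0.11 for the members, 0.11, 0.01 and 0.25 for the 3 lists in that order, and 0.00 for all genes.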

How the data were processed

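RNA from sorted LSK cells was sequenced after a low-input library kit with depletion of unwanted transcripts, per the labels' protocols, although another label calls the molecule polyA RNA. The authors deposited raw counts per Ensembl gene. STAR, featureCounts and mm10 are named in the submitters' processing notes. Their versions, the annotation and the strand setting: not given in the sources used here. Without strand, reads of overlapping genes cannot be told apart, and exons of 13 members overlap another gene. The longest overlaps, all with opposite-strand genes, were 4648 of 8854 bases in Chaf1a (Ubxn6), 2758 of 4097 in Gins2 (Gse1) and 1909 of 2422 in Fen1 (Gm10143). The values of these members carry that limit. The extraction protocol speaks of more animals per genotype than the 2 and 3 libraries analysed here.

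The members and all gene lists were chosen with earlier results of these data known. Symbols came from GENCODE M21 (99.5% of 39056 IDs matched). Counts were filtered with filterByExpr, scaled by TMM and tested with edgeR 4.0.16 (glmQLFit, glmQLFTest, 11.9 residual plus prior degrees of freedom), with Benjamini-Hochberg adjustment over 13467 genes and a threshold of 0.05. CPM are counts per 1000000 of the TMM-scaled library. Intervals are 95%. A gene's length is that of all its annotated exons merged, and its GC content is that of its longest annotated transcript. Alternatives used R 4.3.3, DESeq2 1.42.0, limma 3.58.1, other scalings and filters, each library left out, and a GC offset. Values per library follow a rule. Of the members it names the 12 with the lowest p, the 2 with the lowest fold change and Mcm2 to Mcm7. It adds the member of each role highest per kilobase. Of other genes it names the called or 3 lowest-p replication genes, Gabbr1, Kit, Ly6a, Rrm2 and the most abundant gene of each marker list. Kit is given as group means, and the most abundant genes of the other marker lists are not given by library. Usp1, Dck, the sex-linked genes and the other members with values per library were added after their values were seen. On data simulated from these libraries (13187 genes), the test recovered 38.5% of genes changed 1.5-fold, 73.8% at 2-fold and 98.4% at 4-fold. Promoter sequences are RefSeq's, on GRCm38.p6. A planned search of protein sequences was not run.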

Additional observations from a re-analysis of the deposited data

How the results depend on the processing

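No member was called lower in any of the 16 alternatives, and none was called higher with another scaling, the stricter filter, limma-voom or any library left out. 1 member, E2f8, was called higher with no filter, with DESeq2, with the robust fit, at an adjusted p under 0.1 and with the GC offset. Members higher at an unadjusted p under 0.05 numbered 1 with scaling by total counts only (6.78% of all genes) and 8 with the GC offset. Leaving out each library gave 1 to 9 such members, 13 to 23 members without overlap, 26 to 37 with a positive value and a median of 0.11 to 0.15, where fewer libraries make non-overlap likelier by construction. Over all genes the same settings gave 5.74% to 9.96% higher at the unadjusted p, 20.4% to 31.7% without overlap and 49.3% to 51.0% positive. The lowest of these positive counts, 26, came without WT library 1, and the lowest unadjusted count, 1, without null library 3. With a library left out, the log2 fold change ran from -0.02 to 0.21 for Mcm2, -0.03 to 0.13 for Mcm3, -0.06 to 0.15 for Mcm5, -0.01 to 0.09 for Mcm7, -0.10 to 0.22 for Cdc45 and -0.06 to 0.26 for Pold1, each lowest without WT library 1 and highest without WT library 2. That of E2f1 ran from -0.12 without WT library 1 to 0.02 without WT library 2, and was 0.04 with the GC offset. Over all genes, 289 higher and 45 lower calls became 602 and 155 with no filter (23770 genes tested), 173 higher with the stricter filter, and 81 lower at an adjusted p under 0.1. With a library left out they ran from 32 to 316 higher and from 0 to 51 lower. Apart from the effect of fewer libraries or other genes tested, the cause was not tested. Scaling by total counts moved the members' median to 0.07 and that of all genes to -0.04. No paired analysis was possible because the labels give no replicate numbers. With 2 WT libraries, the WT mean of every member rests on a pair that differed by GC content.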

Other observations

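The share of promoters holding each word differed between the replication genes and the later cell cycle genes. TTTGAA, on either strand, stood in the windows of 24 of 33 G2 and mitosis genes with a RefSeq window (72.7%), in 5 of 30 members (16.7%) and in 20.2% of all genes. The E2F words stood in 1 of 33 G2 and mitosis genes (3.03%), in 16 of 53 other replication genes (30.2%) and in 0 of 18 nucleotide supply genes. CCAAT, a word common to many cell cycle promoters, stood in 19 of 30 members (63.3%), in 26 of 33 G2 and mitosis genes (78.8%) and in 41.1% of all genes. E2f8 held TTTGAA and CCAAT but no E2F word, as did Cdc45 and Mcm2. Gins3 and Fen1 also held TTTGAA, but Gins3 held an E2F word and Fen1 held no CCAAT. These shares are descriptions of sequence, and no test of them was made.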
